A study of Rattus norvegicus with 12 samples.

Results

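Neurotrophins are secreted growth factors of the nervous system, and the genes described here encode 3 of them (Bdnf, Ntf3 and Ntf4), their Trk receptors (Ntrk2 and Ntrk3), and the receptors Ngfr and Sort1. The members were found by gene name: an array feature was taken where its gene name was one of these 7 symbols, which gave 12 of the 30367 probes of the array. Of these 12 probes, 10 (for 5 of the 7 genes) had enough signal to be tested. None of the 10 passed the adjusted threshold between exposed and control cultures, as was the case for 0 of all 23796 tested probes, and their differences ranged from -0.04 to 0.09 log2. Between the 6 pairs of cultures, 9 of the 10 probes differed, against 83.9% of all tested probes. The lot of cells, the slide and in part the scan batch cannot be told apart as the source of that.

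Gene expression was measured with 1-colour arrays in cerebellar cultures enriched in neurons, prepared from neonatal (1 day) Sprague-Dawley rats, harvested after 16 days in vitro (DIV). In 6 cultures acetamiprid (ACE), a neonicotinoid insecticide, was present at 1 µM from 2 DIV onwards. The 6 control cultures received the solvent dimethyl sulfoxide alone, which the exposed cultures also contained. A control and an exposed culture of the same replicate number came from the same lot of cells, pooled from the neonates of a single litter, so that 6 lots gave 6 pairs. The question was whether cerebellar cells that develop under a low, lasting dose of ACE express their genes differently.

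A neurotrophin is made as a longer proneurotrophin, which proteases such as furin and plasmin cleave to the mature factor. Brain-derived neurotrophic factor (BDNF, from Bdnf) and neurotrophin-4 (from Ntf4) bind the receptor tyrosine kinase TrkB (from Ntrk2), and neurotrophin-3 (NT-3, from Ntf3) binds mainly TrkC (from Ntrk3). The p75 receptor (from Ngfr) binds all neurotrophins, and together with sortilin (from Sort1) it binds the proneurotrophins. In the cerebellum BDNF and NT-3 act on the survival, migration and differentiation of granule cells and on Purkinje cells. TrkB also exists in a truncated form without the kinase domain, which is abundant in astrocytes.

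Because several probes measured the same receptor, the probes on which the results turn are shown first. The 4 Ntrk2 probes lie on the minus strand of chromosome 17 of the rat build rn4, spread over 239521 bases. A pair of them (A_42_P538400 at 17:11495183-11495242 and A_64_P058883 at 17:11496095-11496154) are listed under transcript variant 1 and lie 912 bases apart. Probe A_42_P631184, at 17:11680049-11680108, is listed under transcript variant 2. Probe A_43_P15837, at 17:11734704-11734763, is listed under an older trkB mRNA entry. The Ntf3 probe A_44_P496447 lies at 4:162436573-162436632 on the minus strand, and the Ngfr probe A_44_P556989 at 10:84263082-84263141 on the minus strand. All are 60 bases long. Which exon or untranslated part each one lies in was not determined here, and for 4 of them only the first 30 bases are given. The 5′ to 3′ sequences, with no base singled out, are:
Ntrk2 A_42_P538400, first 30 bases: aggacctttctgaggaggacacagaatgtt
Ntrk2 A_64_P058883, whole: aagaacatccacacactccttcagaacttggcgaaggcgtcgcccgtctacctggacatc
Ntrk2 A_42_P631184, first 30 bases: cctttctgaaaaggtagtttatctttaggg
Ntrk2 A_43_P15837, first 30 bases: ggaagactgtgcaaacattatactcctgaa
Ntf3 A_44_P496447, whole: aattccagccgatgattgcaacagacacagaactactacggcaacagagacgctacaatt
Ngfr A_44_P556989, first 30 bases: gagaccaggagcattgtacgcatacgcggg

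Signals are given as quantile-normalised log2 values of the processed intensity, and differences as ACE minus control in log2. The level of a probe depends on its sequence, so no order of levels is drawn between probes, and where a pair of Ntrk2 probes is set against each other, only the change of their difference between arrays is described. On the 12 arrays, 75.4% to 91.0% of gene spots were well above background, with the highest shares on both arrays of replicate 1, and the 75th percentile of the intensity ranged from 1803 to 4384. The labelled culture type was checked against marker genes: all 6 granule cell, all 6 Purkinje cell and 4 of 5 pan-neuronal markers on the array were well above background on all 12 arrays, as were all 6 astrocyte, all 7 oligodendrocyte lineage and all 6 microglia markers. So were 4 of 6 meningeal fibroblast, all 5 Schwann cell and 3 of 5 endothelial markers. The RNA therefore came from cultures of mixed cell types, and fewer cells of a type and less RNA per cell cannot be told apart in it. For the 12 skeletal muscle markers, all of which were tested, the median difference was -1.04 log2, although 3 of the 12 had an unadjusted limma p under 0.05 and 0 an adjusted one, and their sum was lower in ACE in 4 of 6 pairs and higher in replicates 3 and 4. Their summed linear signal ranged from 25046 to 127308 in control and from 29377 to 63750 in ACE, 7 of the 12 were well above background on every array, and each of the 12 was so on at least some array. Summed astrocyte markers were lower in ACE in all 6 pairs, by -0.02 to -0.08 log2. Of the 11 tested astrocyte probes, 1 had an unadjusted limma p under 0.05 and 0 an adjusted one. Summed microglia markers were higher in 5 of 6 pairs, with 4 of 9 microglia probes at an unadjusted limma p under 0.05 and 0 at an adjusted one. Beside these muscle, astrocyte and microglia counts, 16.6% of all tested probes had an unadjusted limma p under 0.05. The part of these cell types in the differences given here was not tested.

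Among the ligands, Bdnf was hardly detected. Its probe, which has 10 spots on the array, was well above background on 1 of 6 control arrays (replicate 3) and on 0 of 6 ACE arrays. Control signals were 1.92 at the lowest, 2.61 at the median and 3.38 at the highest, and ACE signals 1.83, 2.79 and 3.83. Both groups overlapped over nearly their whole range, at a brightness where the array could not give a level. Ntf4 was well above background on control replicates 1 and 2 and on ACE replicates 1 and 3. Its signal was 1.73, 2.14 and 4.40 (lowest, median and highest) in control and 1.69, 1.93 and 5.03 in ACE. The pair differences of Ntf4 went from -2.45 in replicate 2 to 2.61 in replicate 3, so that its 2 widest pairs pointed in opposite directions. Neither gene passed the filter on low signal, and no fold change is given for either. A change of Bdnf or Ntf4 mRNA was thus not measurable with these probes.

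Ntf3 was the only ligand among the members that was well above background on all 12 arrays. Control signals of Ntf3 were 5.61, 6.40 and 6.83 (lowest, median and highest), and ACE signals were 5.52, 6.43 and 7.03. The groups overlapped, and in both of them replicate 1 was lowest and replicate 2 highest. The difference of Ntf3 was -0.04 ± 0.087 (SE, n = 6 pairs, 95% interval -0.24 to 0.17, limma adjusted p = 0.858). ACE was higher in 3 pairs and lower in 3, with the widest pair in replicate 3 at -0.44. Without replicate 3 the difference of Ntf3 was 0.05, and within the scan batch of replicates 4 to 6 it was 0.03, both of the opposite sign and neither past the threshold.

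For Ntrk2, the TrkB gene, all 4 probes were well above background on all 12 arrays. The variant 1 probe A_42_P538400 gave 10.18, 10.38 and 10.70 (lowest, median and highest) in control and 10.15, 10.52 and 10.83 in ACE. Its difference was 0.08 ± 0.040 (SE, 95% interval -0.02 to 0.17, limma adjusted p = 0.376), with ACE higher in 4 of 6 pairs. The groups overlapped, and replicates 1 and 6, the lowest in both groups, were the pairs in which ACE was lower.

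The neighbouring variant 1 probe A_64_P058883 gave 7.92, 8.21 and 8.80 in control and 8.10, 8.15 and 8.52 in ACE, with a difference of -0.04 ± 0.112 (SE, 95% interval -0.31 to 0.23, limma adjusted p = 0.877). This difference rested on replicate 5, in which control was at 8.80 and ACE at 8.15, a pair difference of -0.65. In 4 of the other 5 pairs ACE was higher, and without replicate 5 the difference was 0.08 (adjusted p = 0.436 by limma). In replicate 5 the other variant 1 probe, 912 bases away, had a pair difference of 0.09.

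The variant 2 probe A_42_P631184 gave 12.99, 13.47 and 14.13 in control and 13.07, 13.47 and 14.03 in ACE. The difference was 0.03 ± 0.041 (SE, 95% interval -0.07 to 0.13, limma adjusted p = 0.696), with ACE higher in 4 of 6 pairs. It was 0.06 without replicate 1, 0.0074 without replicate 5 and 0.11 within the scan batch of replicates 4 to 6. The fourth probe, A_43_P15837, gave 7.44, 7.74 and 8.41 in control and 7.29, 7.79 and 8.55 in ACE. Its difference was 0.02 ± 0.047 (SE, 95% interval -0.10 to 0.13, limma adjusted p = 0.881), with ACE higher in 3 of 6 pairs.

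Ntrk3, which encodes the NT-3 receptor TrkC, had 2 probes on chromosome 1, 155923 bases apart. The variant 1 probe A_64_P035162 gave 11.18, 11.43 and 11.69 (lowest, median and highest) in control and 11.24, 11.46 and 11.63 in ACE. Its difference was 0.04 ± 0.032 (SE, 95% interval -0.03 to 0.12, limma adjusted p = 0.526), with ACE higher in 5 of 6 pairs and lower in replicate 3. It ranged from 0.02 to 0.07 with a replicate left out and was 0.08 within replicates 4 to 6. The variant 3 probe A_64_P127858 gave 10.64, 10.97 and 11.35 in control and 10.67, 10.97 and 11.19 in ACE. Its difference was -0.01 ± 0.039 (SE, 95% interval -0.10 to 0.09, limma adjusted p = 0.949). For both Ntrk3 probes the groups overlapped, and replicate 3 was highest in each group.

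Ngfr, the p75 receptor gene, showed the difference of greatest size among the tested member probes with quantile normalisation and all 6 pairs. Its probe, the mean of 10 spots, gave 9.07, 9.40 and 10.24 (lowest, median and highest) in control and 9.22, 9.48 and 10.38 in ACE. In both groups replicates 5 and 6 stood above the other 4 replicates, and the groups overlapped. The difference of Ngfr was 0.09 ± 0.048 (SE, 95% interval -0.03 to 0.20, limma adjusted p = 0.399), with ACE higher in 5 of 6 pairs and lower by -0.14 log2 in replicate 1. Without replicate 1 the difference was 0.13 ± 0.030 (SE, limma adjusted p = 0.177). Within the scan batch of replicates 4 to 6 it was 0.15 ± 0.039 (SE, limma adjusted p = 0.339). Both had an unadjusted p under 0.05 and neither passed the adjusted threshold. The rank of Ngfr depended on the processing. After a shift by the 75th percentile Ntf3 was at -0.118 and Ngfr at 0.074 log2. Without replicate 2, Ntf3 was at -0.083, Ntrk2 A_64_P058883 at -0.084 and Ngfr at 0.075 log2.

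Sort1, the gene of sortilin, was measured by 2 probes 3172 bases apart on chromosome 2. Probe A_44_P445572 gave 10.50, 10.91 and 11.06 (lowest, median and highest) in control and 10.38, 10.92 and 11.06 in ACE, a difference of -0.01 ± 0.036 (SE, 95% interval -0.10 to 0.07, limma adjusted p = 0.868). Probe A_44_P822283 gave 11.53, 11.81 and 12.13 in control and 11.47, 11.75 and 12.24 in ACE, a difference of -0.02 ± 0.035 (SE, 95% interval -0.10 to 0.07, limma adjusted p = 0.817). Replicate 2 was lowest in both groups on both Sort1 probes. ACE was higher in 2 of 6 pairs on each. The difference on A_44_P822283 ranged from -0.04 to -0.0034 with a replicate left out and was -0.07 within replicates 4 to 6.

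**Figure D1:**
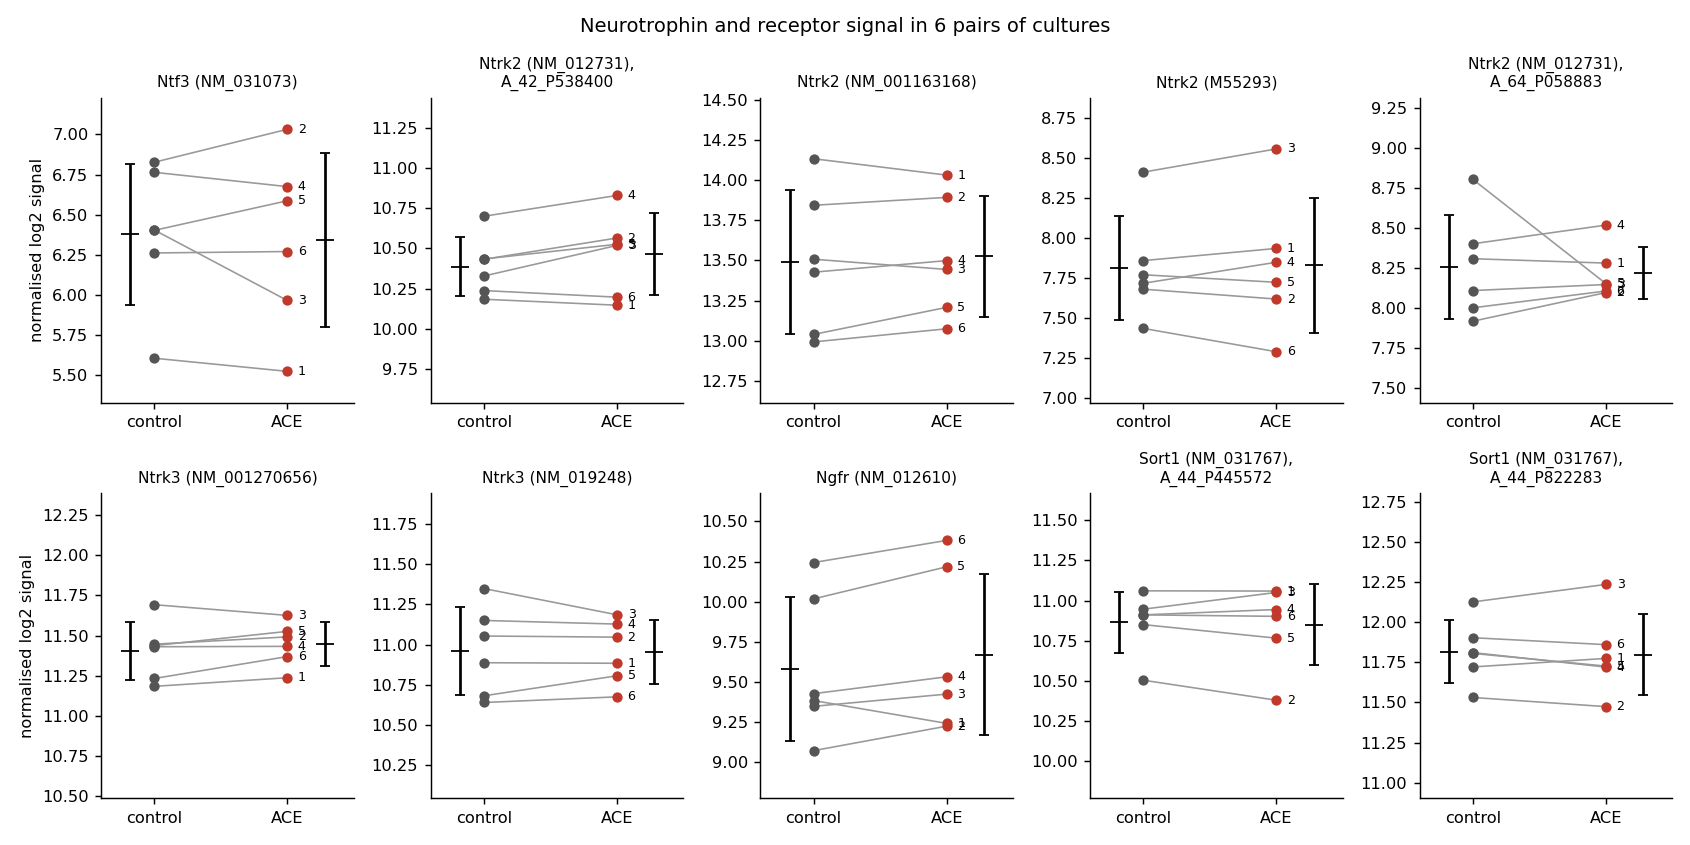
Normalised log2 signal of the 10 tested neurotrophin and receptor probes on control and ACE arrays, with a line for each of the 6 pairs, the replicate number beside the ACE point, and the mean and SD (n = 6) of each group as a black bar. Each panel spans 1.9 log2 units. Lines are mostly flat and lie at different heights: pairs differ from each other more than control differs from ACE, except on the Ntrk2 probe A_64_P058883, where replicate 5 falls from 8.80 to 8.15.

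In all, 0 of the 10 tested member probes passed the adjusted limma threshold of 0.05, where 0% of all 23796 tested probes did (lowest adjusted p = 0.141). With no adjustment, 0 of the 10 member probes had a limma p under 0.05, against 16.6% of all tested probes. ACE and control differed in the same direction in all 6 pairs for 0 of the 10 member probes, against 11.7% of the 23580 probes with 6 complete pairs. The median difference was 0.01 log2 over the member probes and -0.005 log2 over all tested probes. The 95% intervals of the 10 member probes all lay between -0.31 and 0.23 log2, or 0.81-fold and 1.17-fold. Both limits came from the Ntrk2 probe A_64_P058883 and rested on its replicate 5, without which its difference was 0.08 ± 0.039 (SE). The other 9 intervals lay between -0.24 and 0.20 log2. None of the 10 reached a 1.5-fold change.

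**Figure D2:**
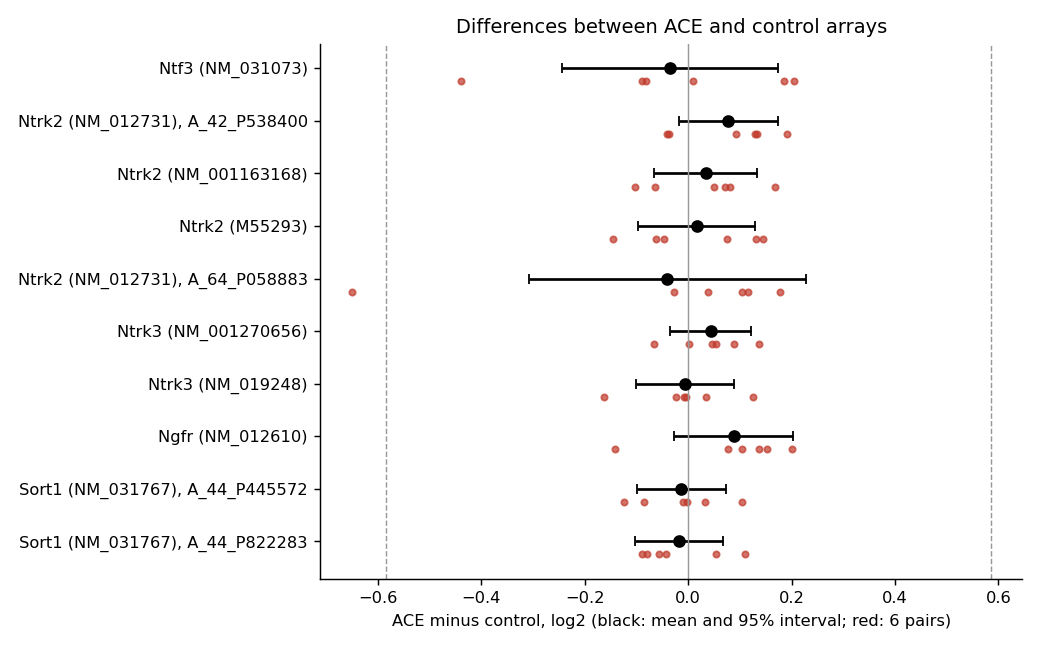
Difference between ACE and control in log2 for the 10 tested member probes, with the mean and 95% interval of the limma fit in black and the 6 pair differences as red points below it. The dashed lines mark a 1.5-fold change in either direction, which no interval reaches. Pair differences lie on both sides of 0 for every member probe.

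Probes of the same gene were also set against each other, to see whether exposure moved parts of a receptor gene differently. There were 8 such comparisons (6 for Ntrk2, 1 for Ntrk3 and 1 for Sort1). An exact two-sided permutation test was used, which flips the signs of the 6 pair differences and whose smallest possible p is 0.03125. Adjusted over the 8 comparisons, a single one could not go below 0.25, so no comparison could pass on its own. The comparisons gave exact p-values of 0.0938 to 1 (0.75 to 1 after adjustment over the 8 comparisons). The lowest p was that of Ntrk3, where the variant 1 probe exceeded the variant 3 probe by 0.05 ± 0.051 log2 (SD, n = 6 pairs) in its response, in 5 of 6 pairs. For Ntrk2 variant 1 (A_42_P538400) against variant 2, the responses differed by 0.04 ± 0.133 log2 (SD, n = 6 pairs).

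Between the 6 lots of cells the members varied more than between control and ACE. With an F test of the replicate terms in the same limma fit, 9 of the 10 member probes passed an adjusted p of 0.05, against 83.9% of all tested probes, so this share was close to that of the array as a whole. The exception was the Ntrk2 probe A_64_P058883 (adjusted p = 0.184). Lot, slide and, for replicates 1, 2 and 3, the scan batch cannot be told apart, and the arrays of replicate 1 were extracted with an older software version. Without replicate 1 the same 9 member probes passed, against 70.3% of 23790 probes. Within the scan batch of replicates 4 to 6 only Ngfr passed (adjusted p = 0.0426 by limma), against 8.68% of 23610 probes. This batch holds 3 lots, so a call lost there does not show that the difference between lots was gone. The Ntrk2 variant 2 probe had a limma adjusted p of 0.0518 there, the Ntrk3 variant 3 probe one of 0.0524 and the Ntrk2 variant 1 probe A_42_P538400 one of 0.0548. The range of the last between lots was 1.46-fold there and 1.52-fold over all 6 lots, and that of the Ntrk3 variant 3 probe was 1.40-fold and 1.53-fold.

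The mean of a pair is used here to describe the lots. For Ntf3 it ranged from 5.56 in replicate 1 to 6.93 in replicate 2, a range of 1.37 log2 or 2.58-fold. Much of this came from replicate 1, since the range was 1.68-fold without it and 1.37-fold within replicates 4 to 6. Before normalisation replicate 1 was not lowest: its Ntf3 intensity was 113 in control and 109 in ACE, against 60.4 and 57.7 in replicate 6. The 75th percentiles of these arrays were 4272 and 4384 against 2222 and 2350, so the place of replicate 1 rests on the normalisation. The range of Ntf3 between lots under other scaling was not computed. For Ngfr the pair mean ranged from 9.15 in replicate 2 to 10.31 in replicate 6, or 2.24-fold, and within replicates 4 to 6 still by 1.78-fold. The Sort1 and Ntrk3 probes varied less, by 0.45 to 0.68 log2, and within replicates 4 to 6 by 0.12 to 0.48 log2.

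The Ntrk2 probes did not follow the same order of lots. The variant 2 probe had its highest pair mean in replicate 1 (14.08) and its lowest in replicate 6 (13.03), a 2.07-fold range that was 1.35-fold within replicates 4 to 6. The variant 1 probe A_42_P538400 was lowest in replicate 1 (10.16) and highest in replicate 4 (10.77). Probe A_43_P15837 was highest in replicate 3 (8.48) and lowest in replicate 6 (7.36), a 2.17-fold range that was 1.45-fold without replicate 3 and 1.34-fold within replicates 4 to 6. The size of the difference between these probes is no measure of transcript abundance, but its change between arrays can be followed. The within-array difference of variant 1 (A_42_P538400) minus variant 2 went from -3.92 to -2.64 log2 as pair means, a 2.42-fold change of their ratio between lots. The change was 1.66-fold without replicate 1 and 1.13-fold within replicates 4 to 6, so that it lay mostly between the scan batches, which cannot be told apart from the lots of replicates 1, 2 and 3. In control cultures this difference was -3.95, -3.41, -3.18, -2.73, -2.60 and -2.75 in replicates 1 to 6, and in ACE cultures it was -3.89, -3.33, -2.92, -2.67, -2.68 and -2.88. Both cultures of a pair lay close together, and replicates 1 and 2 were lowest in both groups.

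Summed signals of cell type markers also varied between lots, and those that ran alongside a member were picked after the values had been seen. The 6 astrocyte markers summed to 19.01 (log2 of the summed signal) in control replicate 1 and 18.97 in ACE replicate 1, and to 18.29 and 18.23 in replicate 6, the same extremes as the Ntrk2 variant 2 probe. The oligodendrocyte lineage markers were lowest in replicate 2 (18.79 in control and 18.80 in ACE) and highest in replicate 6 (19.45 and 19.47), as was Ngfr. The Schwann cell markers, which cells of the oligodendrocyte lineage in part also express, ranged from 13.96 in control replicate 2 to 15.09 in ACE replicate 6. The inhibitory interneuron markers were lowest in replicate 1 (13.99 and 13.96), as was Ntf3 after normalisation, and so were the granule cell markers (11.22 and 11.26). The pan-neuronal markers ran the other way, with their highest sums in replicate 1 (14.78 and 14.77) and their lowest in replicate 3. In ACE the interneuron sum was highest in replicate 5, whereas Ntf3 was highest in replicate 2. The part of these cell types in the lot differences was not tested.

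**Figure D3:**
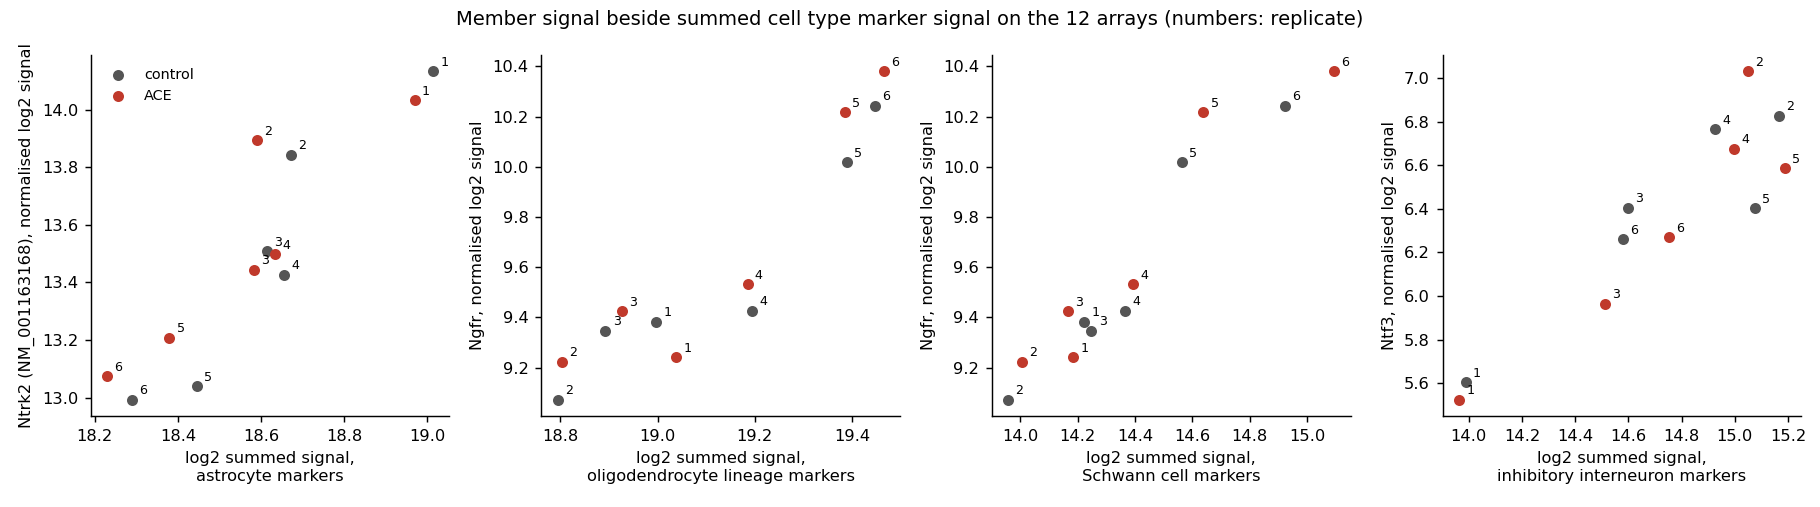
Normalised log2 signal of a member probe (vertical axes) beside the log2 summed signal of a marker list (horizontal axes) on the 12 arrays, control in grey and ACE in red, numbered by replicate. From left to right the panels show Ntrk2 variant 2 with astrocyte markers, Ngfr with oligodendrocyte lineage markers, Ngfr with Schwann cell markers, and Ntf3 with inhibitory interneuron markers. The control and ACE points of a replicate lie near each other, and replicate 1 is at the top right of the first panel and at the bottom left of the last. The panels were chosen after the values had been seen and no test was made.

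The genes whose signal was most like that of a member over the 12 arrays were listed by Pearson's r, as a description. Arrays of a pair share a lot of cells and a slide, so the 12 points are not independent. For Ntrk2 variant 2 they were Rsph1 (r = 0.99), Sfxn1 (r = 0.99) and Zfp385a (r = 0.98), out of 14655 candidate probes. For the variant 1 probe A_42_P538400 they were Nrep, Chgb, which encodes the secretory granule protein chromogranin B, and Dync1i1, a subunit of the dynein motor (r = 0.96 to 0.97). For A_43_P15837 they were Abhd16a, Prickle2 and Jak3 (r = 0.96 to 0.97), and for A_64_P058883 Trove2, Shc4 and Lynx1 (r = 0.85 to 0.88). None of these 12 genes was listed for more than 1 of the 4 Ntrk2 probes. Ngfr was most like Dll3, a Notch ligand, Kirrel3 and Ctps (r = 0.98 to 0.99). Ntf3 was most like Spice1, Herc1 and Stx1a, a syntaxin of the presynaptic membrane (r = 0.94 to 0.96). The Ntrk3 variant 3 probe was most like Adora1, an adenosine receptor gene, Sparcl1 and Comtd1 (r = 0.98), and the variant 1 probe like Bola1, Gdap1 and B4galnt4 (r = 0.96 to 0.97). The Sort1 probes were most like Eif2b4, Sugp2 and Tsn (A_44_P445572) and Dcx, Dip2a and Ccdc22 (A_44_P822283), with r = 0.96 to 0.97. Over the 6 pair differences the most alike probes reached r = 0.96 to 0.998, over as many candidate probes and only 6 points, and these genes are not named.

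The wider pathway was described by 4 lists with 121 genes, 119 of them on the array. None of the list probes passed the adjusted limma threshold, and in each list the share with an unadjusted limma p under 0.05 was below the 16.6% of all tested probes. Of 26 tested probes for processing and release of proneurotrophins, 1 was higher and 2 were lower at that threshold, and the list had a median difference of 0.01 log2. Furin, which encodes a protease that cleaves proneurotrophins inside the cell, was higher in ACE by 0.13 ± 0.036 log2 (SE, adjusted p = 0.196), in all 6 pairs. Plg, the gene of plasminogen, the precursor of plasmin, differed by -0.13 ± 0.033 log2 (SE, adjusted p = 0.178), and ACE was lower in all 6 pairs. Hap1, a partner of huntingtin in vesicle transport, differed by -0.07 ± 0.029 log2 (SE, adjusted p = 0.280), again lower in all 6 pairs.

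In the list of the sortilin family and of p75 co-receptors and adaptors, 1 of 29 tested probes was higher and 2 were lower at the unadjusted threshold, with a median of -0.01 log2. The higher one was Mapk8 and a lower one Mapk10, both genes of the JNK kinases that act downstream of p75. They differed by 0.22 ± 0.056 and by -0.11 ± 0.038 log2 (SE, limma adjusted p = 0.176 and 0.246), each in 5 of 6 pairs. The Mapk8 probe, A_44_P192134, was well above background on 4 control and 5 ACE arrays only, and its difference was 0.09 log2 when arrays were scaled to their 75th percentile and 0.06 log2 with normexp background. The other Mapk8 probe was at 0.05 log2. Ncstn, which encodes the gamma-secretase subunit nicastrin, differed by -0.11 ± 0.036 log2 (SE, adjusted p = 0.239) on probe A_64_P012308 and by 0.01 log2 on the other probe of this gene.

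Of 61 tested probes for Trk adaptors and effectors, 4 were higher and 0 lower at the unadjusted threshold. The median was 0.03 log2. The 3 widest of the higher ones were Sh2b2, an SH2 adaptor, at 0.22 ± 0.088 log2 (SE, limma adjusted p = 0.283), Pik3ca, a catalytic subunit of PI3 kinase, at 0.13 ± 0.049 (SE, adjusted p = 0.260), and Crkl, another adaptor, at 0.13 ± 0.040 (SE, adjusted p = 0.214). Crkl was higher in ACE in all 6 pairs, the other two in 5 of 6. The Pik3ca value is that of probe A_64_P073033, and the 5 other probes of this gene ranged from -0.02 to 0.13 log2.

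Genes that respond to Trk signalling or regulate Bdnf had 34 tested probes, of which 2 were higher and 2 lower at the unadjusted threshold, with a median of 0.01 log2. Spry4, a feedback inhibitor of receptor tyrosine kinases, was at 0.27 ± 0.083 log2 (SE, limma adjusted p = 0.213) on probe A_43_P10102, and at -0.17 log2 on its other probe A_64_P063383 (adjusted p = 0.352), so that its probes differed in sign. Spry2, of the same family, was at -0.06 ± 0.024 (SE, adjusted p = 0.296). Junb, an immediate early gene, was at 0.17 ± 0.063 (SE, adjusted p = 0.267), and Nptx2, the gene of a secreted synaptic pentraxin, at -0.16 ± 0.052 (SE, adjusted p = 0.219). Spry2 was lower in all 6 pairs, and Spry4 (A_43_P10102), Junb and Nptx2 had 5 of 6 pairs in their direction. Fos, Egr1, Egr2 and Arc, also immediate early genes of this list, ranged from -0.07 to 0.03 log2. None of them had an unadjusted limma p under 0.05.

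**Figure D4:**
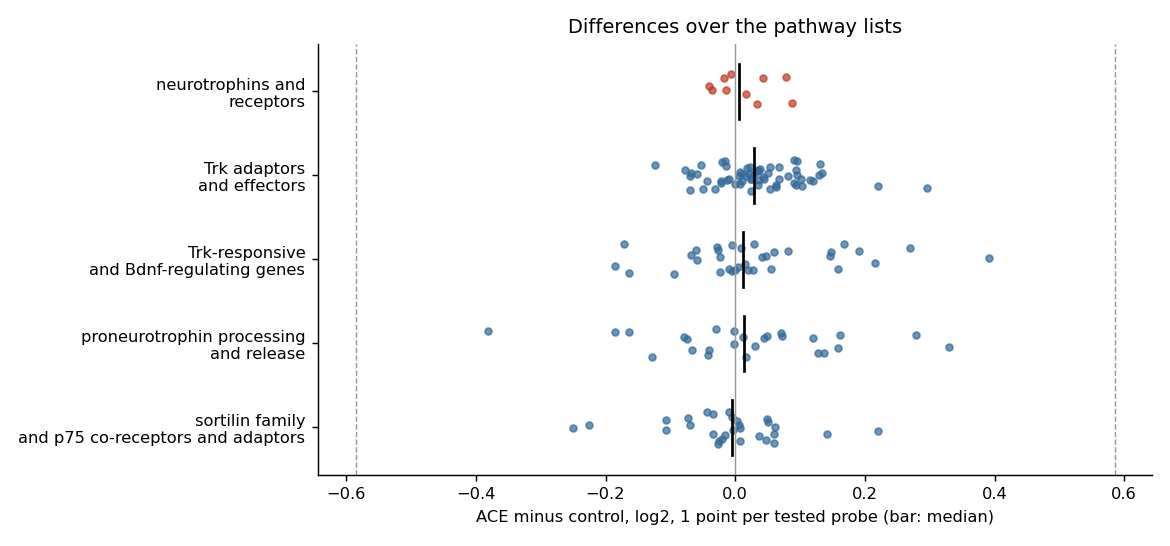
Difference between ACE and control in log2 for each tested probe of the neurotrophins and receptors (red) and of the 4 pathway lists (blue), with the median of each group as a black bar. Dashed lines mark a 1.5-fold change, which no probe reaches. Medians lie between -0.01 and 0.03 log2.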

How the data were processed

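RNA of 12 cultures was hybridised to 1-colour rat arrays. Per the file headers, the authors obtained spot intensities from Agilent Feature Extraction, whose version was 11.0.1.1 on both arrays of replicate 1 and 11.5.1.1 on the other 10. This software had subtracted background, and arrays were not scaled to each other. The authors also deposited log2 values, which their methods describe as quantile normalised and centred on each probe's median. These correlated at 0.997 to 0.999 per array with the values computed here and served as an alternative.

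Control spots were left out and outlier-flagged spots set to missing. The log2 processed intensity was quantile normalised, and spots of a probe were averaged. A probe was tested where it exceeded the 20th percentile of the array on at least 7 of 12 arrays and at least 4 pairs were complete, which left 23796 of 30367 probes. A probe counted as well above background where at least 50% of its spots were so marked by the software. Control and ACE were compared with limma 3.58.1 (R 4.3.3, lmFit and eBayes, two-sided) with replicate as a block, and p-values were adjusted by Benjamini-Hochberg over all tested probes. The authors prepared both cultures of a replicate from the same lot of cells. Deviations from the group mean correlated at 0.449 to 0.912 between arrays of the same number and at -0.439 to 0.390 between others. Each pair shared a slide, with control at place 1 and ACE at place 3, so place and exposure cannot be told apart. The number of arrays limits the precision.

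All member probes were named, and for each pathway list up to 3 higher and 3 lower probes with the widest difference at an unadjusted limma p under 0.05. For each member probe well above background on all arrays, the 3 most alike genes were found by Pearson's r. Withheld genes were left out of the lists and are not reported here. The members and lists were chosen with earlier results of these data known. The F test of the replicate terms was added after seeing the data. The code was tested on simulated data before use. Alternatives covered scaling, background, filter, block, test, scan batch and leaving out each replicate. The array's gene names and rn4 coordinates are those in the files. Figures were drawn with matplotlib 3.10.9.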

Additional observations from a re-analysis of the deposited data

Results flagged for a closer look

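In 50 groups of 6 arrays (the member and named pathway probes in each exposure group), 2 held an array that stood apart from the other 5 by Dixon's criterion, and chance flags about 1 in 20 groups. Junb was highest in ACE replicate 2 at 13.23, with the next ACE array at 12.66, and control replicate 2 was at 12.98. Nptx2 was highest in ACE replicate 1 at 10.43, with the next ACE array at 9.52, and control replicate 1 was at 10.41.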

How the results depend on the processing

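The 10 tested member probes had 160 values under the alternatives. None passed the adjusted threshold, 2 (both of Ngfr) had an unadjusted p under 0.05, and 13 had the opposite sign. The widest of these 13 was 0.0819 log2, for Ntrk2 A_64_P058883 without replicate 5. For Ntrk2 A_43_P15837 the difference was -0.0388 log2 after a shift by the 75th percentile, -0.000801 with normexp background, -0.0205 within the scan batch of replicates 4 to 6, and -0.00944 to 0.0486 with a replicate left out. Ntrk3 A_64_P127858 was at 0.00717 in the authors' deposited values, 0.0458 within that scan batch, and -0.0323 to 0.0253 with a replicate left out. Ntf3 was at -0.118 after the 75th percentile shift (limma adjusted p = 0.465) and at 0.0347 within the scan batch. With a replicate left out Ntf3 ranged from -0.0834 to 0.0456. Within the scan batch, Ntrk2 A_64_P058883 was at -0.143 and Sort1 A_44_P445572 at -0.0201. With a replicate left out, Ntrk2 A_64_P058883 ranged from -0.0836 to 0.0819 and Sort1 A_44_P445572 from -0.0373 to 0.00853. The causes were not tested. With the replicate block as a random effect, 5 probes of the whole array passed the adjusted threshold (Tapbpl, Kpna6, Bmp8b, Ece1 and Ccdc85c, named after their values were seen), and no member was among them. Without the replicate block, 0 probes passed and 81 had an unadjusted p under 0.05 against 3956, with 0 against 14 among the list probes. Those 14 became 7 without replicate 2 and 9 without replicate 6 (the range with a replicate left out was 7 to 19) and 7 with the exact signed-rank test. The member probes that differed between lots numbered 1 within the scan batch, which holds 3 lots, against 9 over all lots, and 9 or 10 with a replicate left out. Of all probes at an unadjusted p under 0.05, 41.5% were higher in ACE, against 19.7% after the 75th percentile shift and 51.5% in the deposited values. The Bdnf and Ntf4 probes were limited by signal near background.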
